A study of Mus musculus with 4 samples.

Results

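The enzymes described here act on or beside the path of methyl groups from choline through betaine to methionine. From there the groups pass to S-adenosylmethionine (SAM), the methyl donor of the cell. The 10 genes, Chdh, Bhmt, Bhmt2, Dmgdh, Sardh, Mat1a, Gnmt, Pemt, Ahcy and Cbs, were taken by name from a table of 54149 genes, and each had 1 entry. They were picked with the difference between knockout and wild-type livers already known in these data. Their differences between the groups are therefore given as values with errors and without a test of each.

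The livers came from adult female mice (strain C57BL/6 x 129S4/SvJae), with 1 group of liver-specific Utx knockouts (Utx KO) and 1 of wild-type controls (WT) matched in age and sex. Utx, listed as Kdm6a, encodes a demethylase of lysine 27 of histone H3. Every mouse in both groups was fasted for 16 h and then given 300 mg/kg acetaminophen (APAP) into the peritoneum, so no group shows the effect of the drug or of fasting by itself. Each group held 2 libraries of poly(A)-selected RNA, each from a pool of 2 mice. The sources used here do not give the Cre line, the alleles carried by wild-type mice or the time from dosing to collection.

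In liver, choline has several fates. Choline dehydrogenase and an aldehyde dehydrogenase oxidize it to betaine in mitochondria, whereas choline kinase commits it to phosphatidylcholine. Betaine gives a methyl group to homocysteine, which yields methionine and dimethylglycine. Methionine becomes SAM, each methyl transfer from SAM leaves S-adenosylhomocysteine, and its hydrolysis returns homocysteine, which is either methylated again or diverted towards cysteine and glutathione. Glutathione is the thiol that traps the reactive metabolite of acetaminophen.

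Kdm6a was at 2.20 and 2.12 FPKM in knockout pools, against 3.40 and 3.85 FPKM in wild-type pools. FPKM are fragments scaled to gene length and to a library total. The log2 fold change of Kdm6a was -0.63 (SE 0.13), and limma gave an adjusted p of 0.0715, above the threshold of 0.05 used throughout. Over the alternatives its adjusted p ran from 0.0335 with limma voom to 0.216 without knockout replicate 1, and it passed with voom and with protein-coding genes alone (0.0441). Reads recovered from FPKM summed to between 16330451 and 17804730 per library, and 5.40% to 6.93% of them belonged to Alb, which encodes albumin and marks hepatocytes. A mean of 1 FPKM or more was reached by 11900 genes, which were tested, and 564 (4.74%) passed the threshold, 190 (1.60%) of them higher and 374 (3.14%) lower in the knockout. Without wild-type replicate 1, wild-type replicate 2, knockout replicate 1 or knockout replicate 2 the total was 30, 0, 5 and 234. Markers of other cell types also differed between the same libraries. All 11 tested neutrophil markers of a list of 14 were lower in both knockout pools, against 29.9% of tested genes, and 5 passed the test. The summed level of the 14 was 197 and 205 FPKM in knockout pools and 436 and 548 FPKM in wild-type pools. Of these sums, Lcn2, which hepatocytes also express in the acute phase response, made up 154 and 165 FPKM in knockout pools and 312 and 358 FPKM in wild-type pools. The 3 untested markers were low. Ly6g, which defines neutrophils, was at 0.06 and 0.12 FPKM in knockout pools and 0 and 0.34 FPKM in wild-type pools, Camp was at 0.518 and 1.0004 FPKM in knockout pools and 0.156 and 0 FPKM in wild-type pools, and Ltf was at 0.0813 and 0.321 FPKM in knockout pools and 0.154 and 0.0369 FPKM in wild-type pools. Of 4 tested cholangiocyte markers Sox9 fell (log2 fold change -1.83, limma adjusted p = 0.0258), and of 12 tested macrophage markers Cd163 fell (-0.80, limma adjusted p = 0.0467). None of 10 sinusoidal endothelial and 8 stellate cell markers tested passed with limma, and their median log2 fold changes were -0.38 and -0.35. An unadjusted limma p under 0.05 was reached by 5 and 4 of them, and by 3226 of all 11900 tested genes. Lower in both knockout pools were 6 and 5 of them, against 29.9% of tested genes. Another 2 stellate cell markers, Col3a1 and Lrat, were higher in both knockout pools. Mitochondrial ribosomal RNA made up 0.108% and 0.158% of knockout reads, against 0.244% and 0.251% of wild-type reads. The part of these differences in the results below was not tested.

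The 10 genes spanned a wide range of level and of difference. All 10 passed the filter on low values, on 804 to 64039 reads per gene and library. In order of mean FPKM over the 4 libraries they were Mat1a (787), Gnmt (649), Ahcy (533), Bhmt (418), Dmgdh (117), Pemt (75.9), Bhmt2 (59.98), Cbs (58.5), Sardh (58.4) and Chdh (24.1). The order depends on the gene lengths used, and that of Bhmt was listed as 5758 bases, against 2490 in its longest coding transcript. The first 4 were above at least 99.0% of all tested genes, and Chdh was above 83.6%. Neighbours in this order whose libraries overlapped were Mat1a and Gnmt, Ahcy and Bhmt, and each adjacent pair from Pemt to Sardh. Every library of Chdh was below every library of Sardh. The count of the 10 past the adjusted threshold was 2, both on the higher side, against 1.60% of tested genes past it in that direction. For Chdh, Bhmt2, Sardh and Pemt both knockout pools lay above both wild-type pools, 4 of 10 genes, against 31.6% of tested genes. None of the 10 had both knockout pools below both wild-type pools, against 29.9% of tested genes, and 61.5% of tested genes were apart in either direction. As the genes were picked on this comparison, nothing is read from these counts. The count past the threshold was 0 without wild-type replicate 1, wild-type replicate 2 or knockout replicate 1, and 1 without knockout replicate 2.

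**Figure D1:**
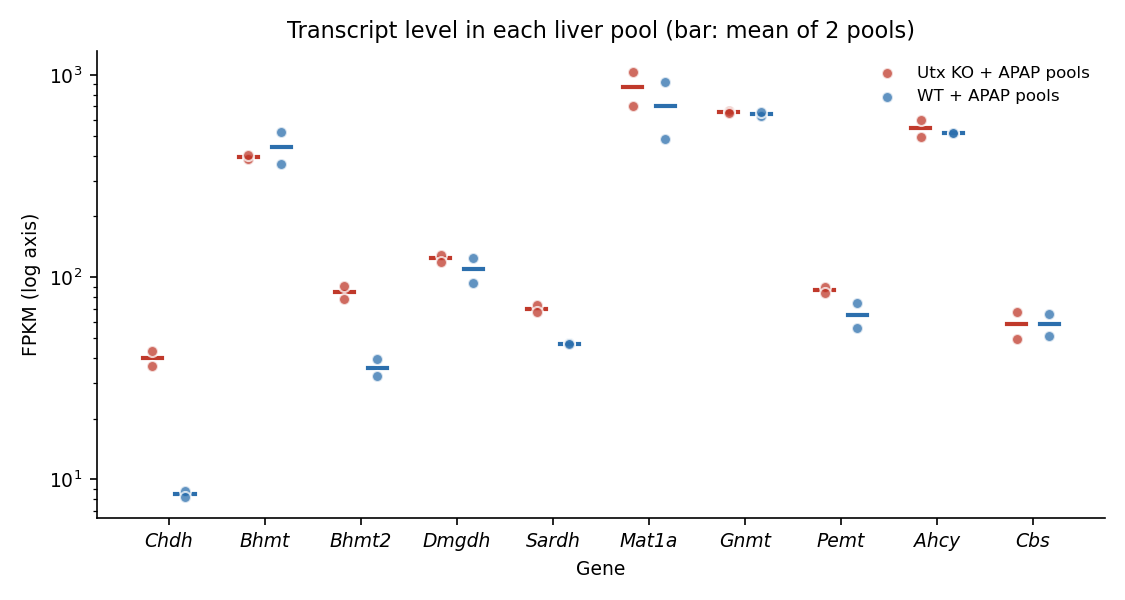
FPKM of each enzyme gene in each library on a log axis, with the 2 knockout pools in red on the left of each gene, the 2 wild-type pools in blue on the right, and bars for the means. Chdh, Bhmt2, Sardh and Pemt are the genes whose groups do not overlap.

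Chdh, the mitochondrial dehydrogenase that starts betaine synthesis, showed the largest difference of the 10. It was at 43.1 and 36.4 FPKM in knockout pools and at 8.80 and 8.22 FPKM in wild-type pools. Both knockout pools were far above both wild-type pools. The log2 fold change was 2.15 (SE 0.13, 95% interval 1.81 to 2.49), or 4.67-fold in mean FPKM. These levels rest on 4776 and 3876 reads in the knockout and on 925 and 804 reads in the wild type.

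The start of Chdh (ENSMUSG00000015970, GRCm38 chromosome 14, 30009023 to 30040527, plus strand) faces that of Il17rb, a subunit of the interleukin-25 receptor, across 126 bases. Il17rb was at 4.36 and 3.21 FPKM in knockout pools and at 1.28 and 1.68 FPKM in wild-type pools. Its pools did not overlap either, and its log2 fold change was 1.11 (SE 0.21, limma adjusted p = 0.0592). It passed in 3 of 14 alternatives, with adjusted p between 0.0335 and 0.190. Gm18760, a processed pseudogene in an intron of Chdh on the other strand, was at 4.30 and 2.63 FPKM in knockout pools and at 1.16 and 0.669 FPKM in wild-type pools (adjusted p = 0.0675). Strand marking of the libraries is not stated, so its reads cannot be told apart from those of unspliced Chdh transcripts. The genes on both sides of the stretch between the starts were higher in both knockout pools, as were 31.6% of tested genes. The stretch is shown for this reason. It is chr14:30008897-30009022 on the plus strand, read from RefSeq promoter windows of GRCm38.p6. Capitals mark, in order, a GC box (GGGCGG, here on the opposite strand) and a match to the AP-1 motif TGANTCA.
Chdh and Il17rb: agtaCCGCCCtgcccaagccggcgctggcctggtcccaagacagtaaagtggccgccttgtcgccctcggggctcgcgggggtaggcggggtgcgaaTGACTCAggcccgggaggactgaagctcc
Matches were sought on both strands. Among 32851 RefSeq promoter windows of 300 bases, 35.7% held the GC box and 7.81% the AP-1 motif, and the 2 matches shown do not overlap. The stretch holds 11 CG dinucleotides, and the full window around this start of Chdh holds 26, more than 83.1% of windows. RefSeq lists a further pair of Chdh windows with 4 CG dinucleotides each, and a value per gene does not show which start was used. A match is a description of the letters and not a measured binding site.

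Bhmt and Bhmt2 remethylate homocysteine, and their levels compared differently between the groups. Bhmt, which uses betaine, was at 383 and 405 FPKM in knockout pools and at 361 and 524 FPKM in wild-type pools. The knockout values lay between the wild-type values. Its log2 fold change was -0.14 (SE 0.22, 95% interval -0.73 to 0.44). Bhmt2, which uses S-methylmethionine as the methyl donor, was at 90.3 and 78.05 FPKM in knockout pools and at 32.3 and 39.2 FPKM in wild-type pools. Its groups were well apart, with a log2 fold change of 1.23 (SE 0.15, 95% interval 0.82 to 1.63). The FPKM of Bhmt2 came to 23.6% and 19.3% of that of Bhmt in knockout pools and to 8.94% and 7.49% in wild-type pools. These percentages depend on the listed gene lengths, 5758 bases for Bhmt and 2467 for Bhmt2, whose longest coding transcripts hold 2490 and 2467 bases. Recovered reads of Bhmt2 were 3973 and 3301 in knockout pools and 1348 and 1521 in wild-type pools. Those of Bhmt were 39294 and 39936 in knockout pools and 35188 and 47416 in wild-type pools. The paralogs share 75.4% of 1088 aligned coding bases in GENCODE M21, and the longest identical run between their longest coding transcripts is 59 bases. How reads that match both were counted is not stated.

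**Figure D2:**
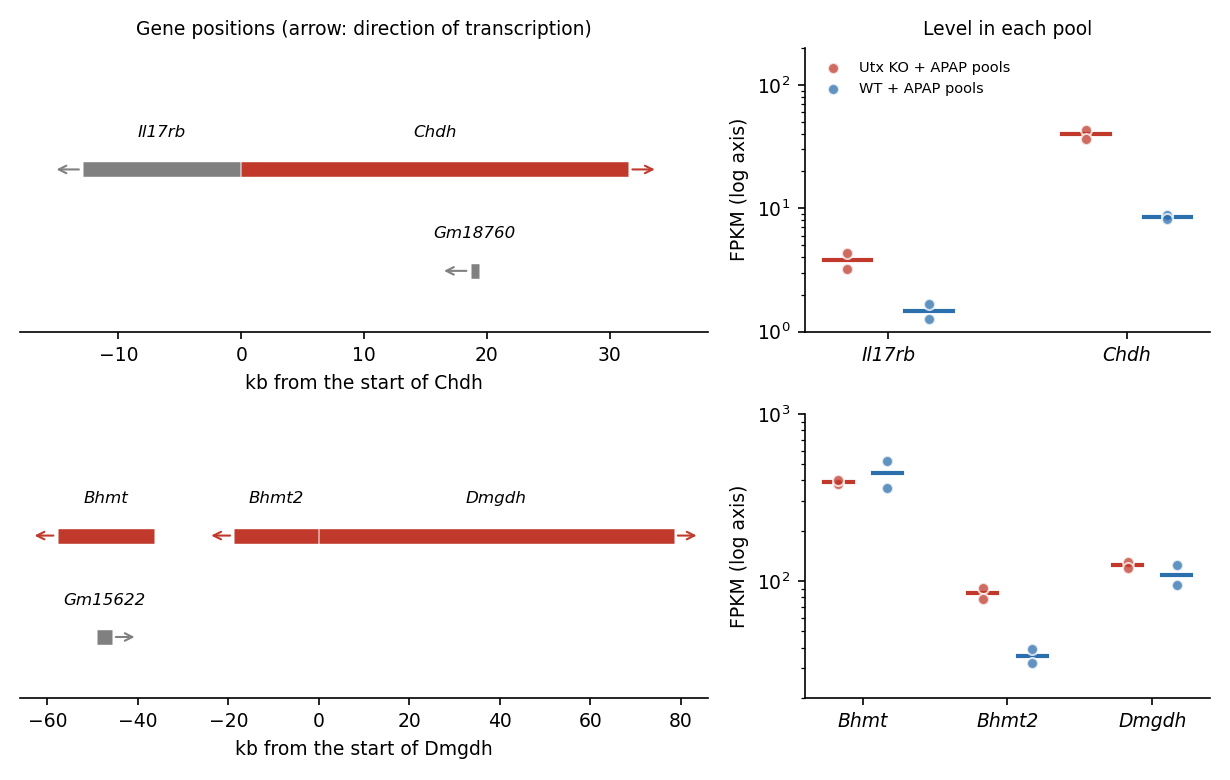
Left, positions of Chdh with Il17rb (top) and of Bhmt, Bhmt2 and Dmgdh (bottom), in kb from the start of Chdh or Dmgdh, with enzymes of the cycle in red and other genes in grey. Right, FPKM on a log axis in knockout pools (red) and wild-type pools (blue), with bars for means; Il17rb and Chdh are both higher in both knockout pools, whereas of the lower 3 genes Bhmt2 alone has groups that do not overlap.

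Bhmt, Bhmt2 and Dmgdh lie next to one another on chromosome 13. Bhmt (93616675 to 93637961) and Bhmt2 (93655720 to 93674302) are on the minus strand, and Dmgdh (93674433 to 93752833) is on the plus strand, with its start 130 bases from that of Bhmt2. Dmgdh, the mitochondrial flavoenzyme that turns dimethylglycine into sarcosine, was at 129 and 119 FPKM in knockout pools and at 94.07 and 124 FPKM in wild-type pools. Knockout replicate 2 lay below wild-type replicate 2, so the groups overlapped, and the log2 fold change was 0.20 (SE 0.18, 95% interval -0.27 to 0.66). The stretch between the starts of Bhmt2 and Dmgdh is shown because it lies between genes with log2 fold changes of 1.23 and 0.20. It is chr13:93674303-93674432, given on the minus strand in the direction of Bhmt2, from the same RefSeq table, and capitals mark a GC box (GGGCGG).
Bhmt2 and Dmgdh: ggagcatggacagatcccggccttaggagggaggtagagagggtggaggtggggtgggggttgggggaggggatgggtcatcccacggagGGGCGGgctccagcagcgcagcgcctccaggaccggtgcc
It holds 6 CG dinucleotides, and the windows of Bhmt2 and Dmgdh, which overlap, hold 26 and 25. RefSeq windows were found for 9 of the 10 genes (all but Mat1a), 12 windows in all. Of these 12, none matched the TATA box TATAAA (13.6% of all windows), 5 matched CCAAT (37.4%), 5 the GC box, 2 the AP-1 motif and 4 the nuclear receptor half-site AGGTCA (16.3%). The AP-1 matches were in the windows of Chdh and Ahcy.

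Gm15622, annotated as antisense within Bhmt, was at 3.37 and 1.87 FPKM in knockout pools and was listed at 0 and 0.130 FPKM in wild-type pools. It rose in the knockout (limma adjusted p = 0.0422) on 88 and 47 reads, against 0 and 3 reads in the wild type. The ratio of its reads per library total was 43.8, with an exact 95% interval of 14.7 to 215 that covers counting error only. It covers 226 bases of Bhmt exons, so without strand its reads and those of Bhmt cannot be told apart there. Its call was lost in 7 of 13 alternatives, among them without any 1 of the 4 libraries (adjusted p from 0.0570 without knockout replicate 2 to 0.141 without knockout replicate 1). In all, 24 genes outside the 10 overlap them or lie next to them, 10 were tested, and Gm15622 was the 1 that passed. Vav2 beside Sardh, Pex6 and Cnpy3 beside Gnmt, Pknox1 and U2af1 beside Cbs, Jmy beside Bhmt and Rasd1 beside Pemt had log2 fold changes between -1.10 for Rasd1 and 0.27 for Pex6. The other genes lie apart from these in GRCm38, namely Sardh (chromosome 2, 27188393 to 27248337, minus strand), Ahcy (chromosome 2, 155059310 to 155074497, minus strand), Pemt (chromosome 11, 59970614 to 60046489, minus strand), Mat1a (chromosome 14, 41105035 to 41124412, plus strand), Cbs (chromosome 17, 31612623 to 31637199, minus strand) and Gnmt (chromosome 17, 46725664 to 46729168, minus strand).

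Sardh, which oxidizes sarcosine to glycine in mitochondria, was at 72.8 and 67.3 FPKM in knockout pools and at 47.1 and 46.5 FPKM in wild-type pools. Both knockout pools were higher, and the wild-type pools lay close together. The log2 fold change was 0.58 (SE 0.11, 95% interval 0.29 to 0.86).

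**Figure D3:**
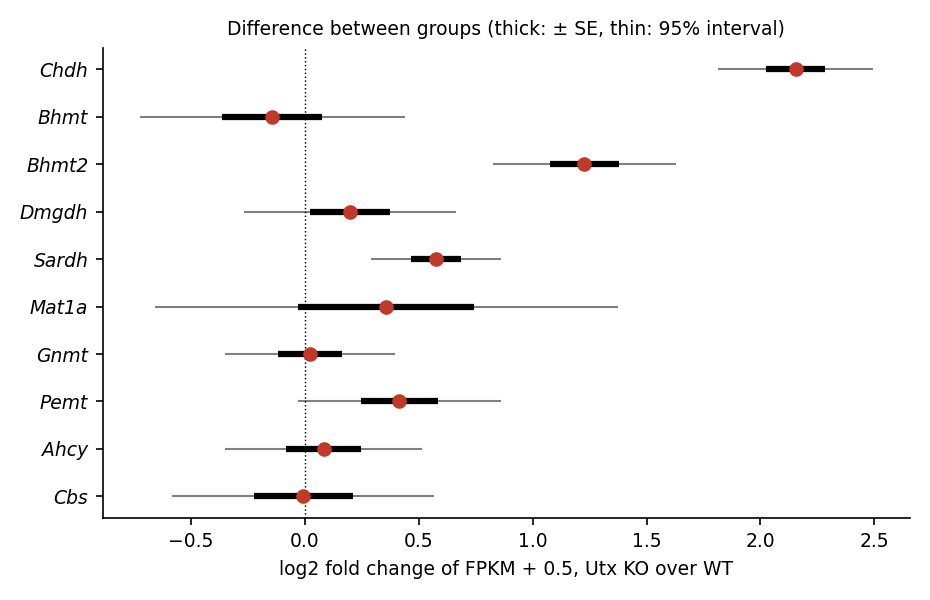
Log2 fold change of FPKM + 0.5, knockout over wild type, for each enzyme gene (point), with its SE (thick bar) and 95% interval (thin bar) from the limma fit across 11900 genes. Chdh lies at 2.15 and Bhmt2 at 1.23, and the interval of Mat1a is the widest of the 10, from -0.66 to 1.37.

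Mat1a encodes the SAM synthetase of hepatocytes. It was at 1036 and 707 FPKM in knockout pools and at 484 and 923 FPKM in wild-type pools. The wild-type pools differed 1.91-fold from each other, more than the group means did, and the log2 fold change was 0.36 (SE 0.39, 95% interval -0.66 to 1.37).

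Among enzymes that use SAM or its product, Gnmt, which passes the methyl group of SAM to glycine, was at 661 and 647 FPKM in knockout pools and at 630.3 and 658 FPKM in wild-type pools. The groups overlapped, and the ratio of the highest to the lowest library was the smallest of the 10 genes, with a log2 fold change of 0.02 (SE 0.14, 95% interval -0.35 to 0.40). Pemt, which methylates phosphatidylethanolamine to phosphatidylcholine, was at 89.5 and 83.4 FPKM in knockout pools and at 56.4 and 74.2 FPKM in wild-type pools. Its groups did not overlap, and its log2 fold change was 0.41 (SE 0.17, 95% interval -0.03 to 0.86). Ahcy, which hydrolyses S-adenosylhomocysteine, was at 602 and 497 FPKM in knockout pools and at 514 and 519 FPKM in wild-type pools. The wild-type values lay between the knockout values, with a log2 fold change of 0.08 (SE 0.16, 95% interval -0.35 to 0.51). Cbs, which joins homocysteine to serine on the way to cysteine, was at 67.7 and 49.2 FPKM in knockout pools and at 51.02 and 66.01 FPKM in wild-type pools. The wild-type values again lay between the knockout values, with a log2 fold change of -0.01 (SE 0.22, 95% interval -0.58 to 0.57).

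Pools of the same genotype also differed from each other. In 9 of 10 genes, all but Bhmt, knockout replicate 1 was above knockout replicate 2, against 48.8% of tested genes. In 8 of 10, all but Chdh and Sardh, wild-type replicate 2 was above wild-type replicate 1, against 52.1% of tested genes. The median log2 fold change of the 10 genes, 0.28, was 0.036 without wild-type replicate 1 and 0.48 without wild-type replicate 2, and that of all tested genes was 0.01. Liver as bulk tissue mixes cell types, and fewer cells of a type cannot be told apart from less RNA per cell. Of 11 tested hepatocyte markers, 7 overlapped between the groups, and 2 were higher and 2 lower in both knockout pools. Among all tested genes 31.6% were higher and 29.9% lower in both knockout pools. The median log2 fold change of the hepatocyte markers was 0.18.

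**Figure D4:**
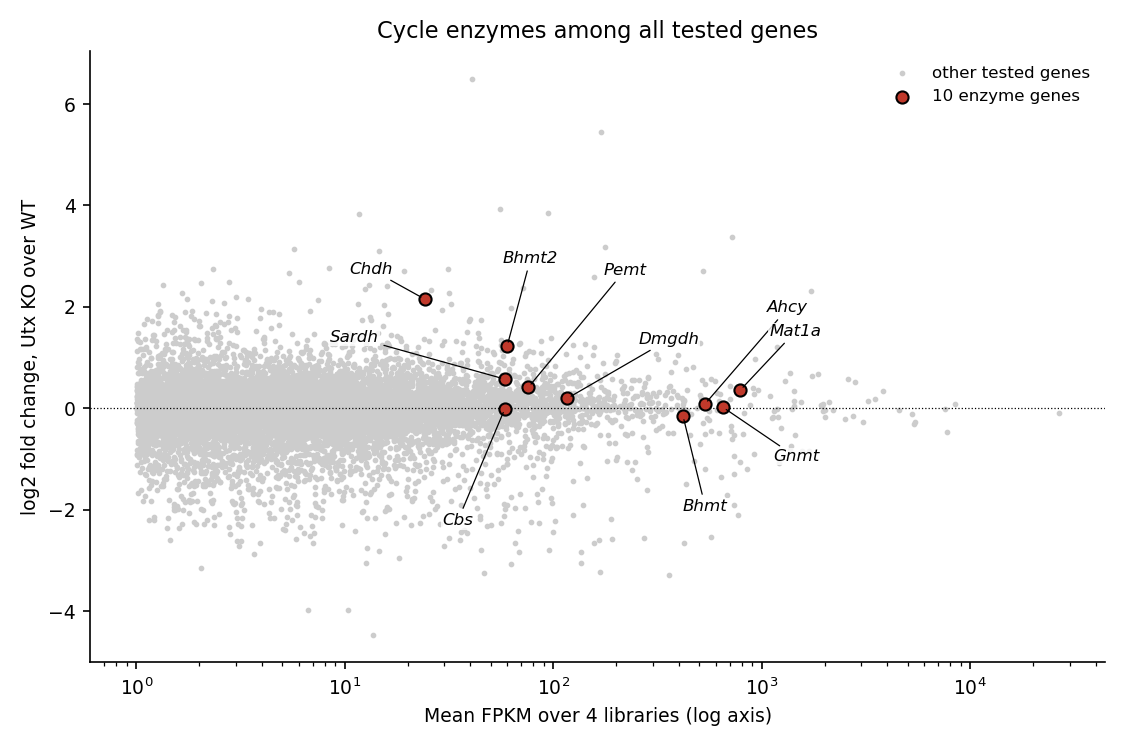
Log2 fold change (knockout over wild type) against mean FPKM over the 4 libraries on a log axis, for the 10 enzyme genes (red, named) and the other tested genes (grey). Of the 10, Mat1a, Gnmt, Ahcy and Bhmt lie at the high end of expression, at log2 fold changes from -0.14 (Bhmt) to 0.36 (Mat1a). Chdh and Bhmt2 stand above them at lower levels.

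Genes that meet the cycle were examined as 4 lists of connected pathways, with 73 tested genes in all. Of these, 3 rose, 4 fell and 66 did not pass. The share of all tested genes past the threshold was 4.74%, and the median log2 fold change of the 73 was 0.09. The lists were chosen with earlier results of these data known, so nothing is read from their counts or medians against all tested genes. All 7 calls were of the choline, folate and cysteine lists.

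At the choline branch point, the kinase that takes choline towards phospholipid fell, and so did a mitochondrial choline carrier. Chka, a choline kinase, was at 19.3 and 22.4 FPKM in knockout pools and at 71.9 and 118 FPKM in wild-type pools. Both knockout pools were well below, and the log2 fold change was -2.12 (SE 0.26, adjusted p = 0.0350 with limma). Slc25a48, which carries choline into mitochondria, was at 1.26 and 1.23 FPKM in knockout pools and at 2.86 and 3.17 FPKM in wild-type pools, on 71 to 168 reads. Its pools did not overlap, and its log2 fold change was -1.01 (SE 0.15, adjusted p = 0.0429 with limma). Etnk2, an ethanolamine kinase, rose, with 23.4 and 24.1 FPKM in knockout pools and 14.8 and 15.1 FPKM in wild-type pools (log2 fold change 0.65, SE 0.10, limma adjusted p = 0.0443). These were the calls among 19 tested genes of choline transport and phospholipid head groups: 1 rose, 2 fell and 16 did not pass, with a median of -0.08. Aldh7a1, which completes betaine synthesis from the product of Chdh, was at 50.4 and 48.4 FPKM in knockout pools and at 33.4 and 39.02 FPKM in wild-type pools (adjusted p = 0.112). Pcyt1a, the rate-limiting enzyme of the path from phosphocholine to phosphatidylcholine, had a log2 fold change of -0.18 (95% interval -0.66 to 0.29). Without wild-type replicate 1 only Chka of the 3 passed (limma adjusted p = 0.0465), and without any 1 of the other libraries none did, with adjusted p for Chka between 0.0606 and 0.1002.

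**Figure D5:**
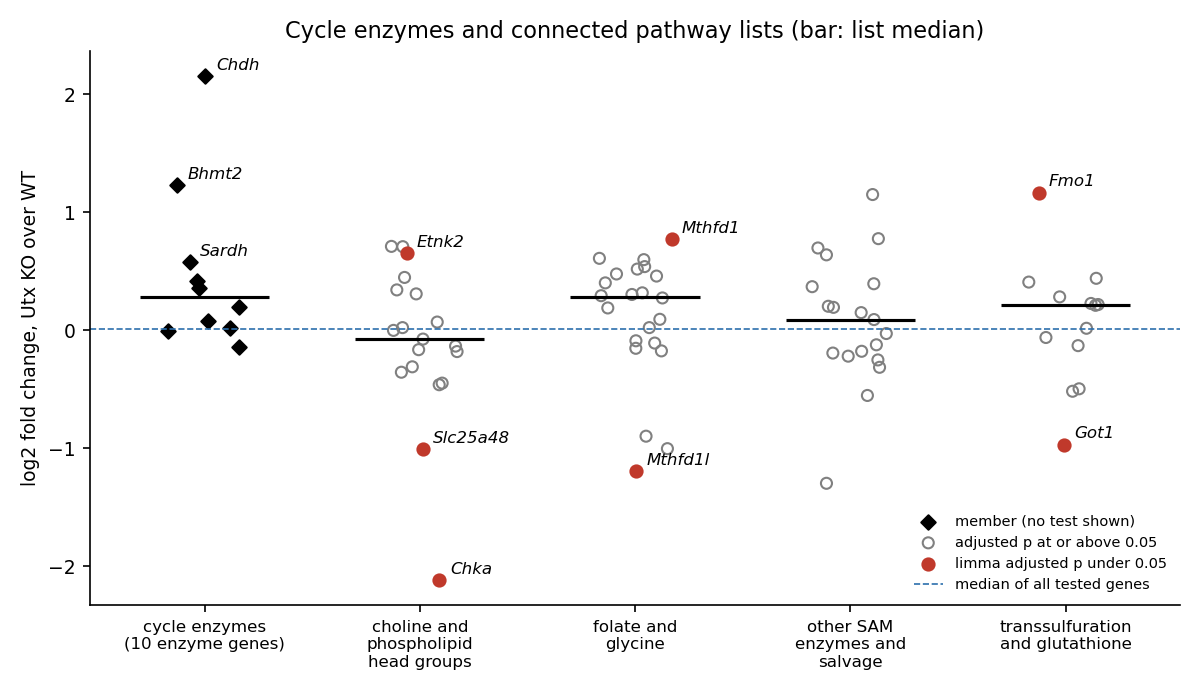
Log2 fold change (knockout over wild type) of the 10 enzyme genes (black diamonds, no test shown) and of 4 lists of connected genes, with red points for limma adjusted p under 0.05, open points for the rest, bars for list medians and a dashed line for the median of all tested genes. Chka at -2.12 and Fmo1 at 1.17 are the lowest and the highest called genes of the lists.

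Folate carries the methyl group for the other route from homocysteine to methionine. Mtr, the methionine synthase, was at 1.80 and 2.14 FPKM in knockout pools and at 1.98 and 2.35 FPKM in wild-type pools. Its groups overlapped, and its log2 fold change was -0.11 (SE 0.17, 95% interval -0.55 to 0.34), not past the threshold. Its level in FPKM was far below that of Bhmt. Of 22 tested genes of folate and glycine metabolism, 1 rose, 1 fell and 20 did not pass, with a median of 0.28. Mthfd1, the trifunctional folate enzyme of the cytosol, rose, with 25.4 and 22.7 FPKM in knockout pools and 14.2 and 13.6 FPKM in wild-type pools (log2 fold change 0.77, SE 0.11, limma adjusted p = 0.0426). Mthfd1l, the formyltetrahydrofolate synthetase of mitochondria, fell, with 1.66 and 1.32 FPKM in knockout pools and 3.59 and 4.53 FPKM in wild-type pools (log2 fold change -1.20, SE 0.18, limma adjusted p = 0.0448). Pipox, a peroxisomal oxidase that takes sarcosine as a substrate, was at 47.2 and 37.6 FPKM in knockout pools and at 27.1 and 31.7 FPKM in wild-type pools (adjusted p = 0.136). Neither Mthfd1 nor Mthfd1l passed when any 1 of the 4 libraries was left out (limma adjusted p between 0.0860 and 0.156).

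Of 19 tested genes for other SAM synthesis, SAM use and methionine salvage, 0 passed with limma and 0 with limma voom on recovered reads. An unadjusted limma p under 0.05 was reached by 4 of the 19, and by 3226 of all 11900 tested genes. Mat2a, the SAM synthetase subunit of other tissues, was at 2.13 and 4.77 FPKM in knockout pools and at 4.47 and 5.50 FPKM in wild-type pools. The groups overlapped, and these levels were a small fraction of those of Mat1a. Mat2b, its regulatory partner, and Ahcyl1 and Ahcyl2, relatives of Ahcy, had log2 fold changes of 0.15 (SE 0.17), 0.09 (SE 0.12) and -0.03 (SE 0.18).

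Past Cbs, Cth, which releases cysteine from cystathionine, was at 56.9 and 50.3 FPKM in knockout pools and at 46.5 and 67.2 FPKM in wild-type pools. The knockout values lay within the range of the wild-type values, with a log2 fold change of -0.06 (95% interval -0.61 to 0.49). Of 13 tested genes of transsulfuration, cysteine and glutathione synthesis, 1 rose, 1 fell and 11 did not pass, with a median of 0.21. Fmo1, a flavin monooxygenase that forms taurine from hypotaurine, rose, with 70.6 and 91.4 FPKM in knockout pools and 34.6 and 36.5 FPKM in wild-type pools (log2 fold change 1.17, SE 0.16, limma adjusted p = 0.0408). Got1, a cytosolic aminotransferase of aspartate, fell, with 53.6 and 58.4 FPKM in knockout pools and 100.005 and 121 FPKM in wild-type pools (log2 fold change -0.97, SE 0.14, limma adjusted p = 0.0433). Neither passed when any 1 of the 4 libraries was left out (limma adjusted p between 0.0754 and 0.158).

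The genes outside these lists whose values over the 4 libraries were nearest to those of Chdh, by Euclidean distance of log2 values centred on each gene's mean, were Scgb2b3 (distance 0.21), Cyp7b1 (0.22) and Apol7a (0.29). Cyp7b1, an oxysterol hydroxylase, was at 23.7 and 18.9 FPKM in knockout pools and at 3.69 and 3.85 FPKM in wild-type pools. Apol7a was at 18.8 and 19.05 FPKM in knockout pools and at 3.85 and 4.45 FPKM in wild-type pools. Scgb2b3 rests on 17 and 11 reads in knockout pools and on 1 read in each wild-type pool. These genes were selected by their likeness, which rests on 4 libraries.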

How the data were processed

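The submitters' processing notes name HISAT2 (2.0.5) and the build mm10 (GRCm38.p6). The sources used here do not give the counting program, strand setting or annotation release. The authors deposited FPKM per gene and library, with gene lengths per the file headers. Whole reads were recovered from FPKM times gene length for 100% of values above 0, within 0.01 read. The library totals implied by the authors' FPKM were 0.943 to 1.05 times the sums of these reads. Chi-square statistics per gene between replicate pools were 18.4 in knockout and 22.05 in wild type, so no pool was a copy of another.

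Log2(FPKM + 0.5) was fitted with limma 3.58.1 in R 4.3.3 (mean-variance trend) over the 11900 genes whose mean reached 1 FPKM, with two-sided p-values adjusted by Benjamini-Hochberg over all of them at 0.05. The pseudocount makes fold changes of low genes smaller. The fit had 2 residual and 2.59 prior degrees of freedom and was tested on simulated data. Pools are taken as replicates, so a p-value sets a difference against the spread between pools of 2 mice. That spread is the gene's own drawn towards that of other genes of similar level.

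The members and lists were chosen with earlier results of these data known. Named are the members, Kdm6a, 12 genes that share substrates with the members (1 of them is not reported here), called genes of each list (up to 6), overlapping and adjacent genes that were tested, and the 3 nearest to Chdh. Of the members, 9 of 10 have the same coordinates in GENCODE M21. Sequences were read from RefSeq windows, and coding bases were aligned with Biopython 1.88. Figures used matplotlib 3.10.9 under Python 3.11.15. Alternatives were the pseudocount, the filter, the scaling, the limma variant, recovered reads with voom, protein-coding genes alone, a replicate block and leaving out each library. A crossed block was added after seeing the data.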

Additional observations from a re-analysis of the deposited data

How the results depend on the processing

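Fits without 1 library had 1 residual degree of freedom, and the lone pool of a group was assumed to vary like the other group. They called between 0 and 234 genes (0 to 51 higher, 0 to 183 lower). The fit without a filter on low values tested 26643 genes and called 0 (0 higher, 0 lower), with 4388 at an unadjusted p under 0.05, and the fit without wild-type replicate 2 called 0 with 2662. Limma without the trend called 280 (80 higher, 200 lower), limma voom 1105 (418 higher, 687 lower) and protein-coding genes alone 1014 (408 higher, 606 lower). Rescaling to the listed reads called 466, with 45.3% of calls higher against 33.7%, and shifted the median of all genes by 0.06.

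The cycle enzymes past the threshold numbered 0 without a filter, and 3 both at a mean of at least 5 FPKM and with protein-coding genes alone. These last settings called 634 of 6548 and 1014 of 10165 tested genes, against 564 of 11900 in the main fit. As the enzymes were picked on this comparison, nothing is read from their counts. Of the connected lists, without a filter the choline, folate and cysteine lists had 0, 0 and 0 calls. Without the trend the folate and cysteine lists had 0 and 0, at a mean of at least 5 FPKM the folate list had 1, and with protein-coding genes alone the SAM list had 1. Without 1 library the choline list had 0 to 1 and the folate, SAM and cysteine lists 0.

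Replicate numbers are not said to pair the pools, and same-numbered pools deviated against each other (correlation -0.14 over 11900 genes). The replicate block called 310 genes (74 higher, 236 lower) and 1 enzyme, with 1, 0 and 0 calls in the choline, folate and cysteine lists. A crossed block, added after seeing the data, called 552 genes, with 1, 1, 1 and 0 calls in the choline, folate, SAM and cysteine lists.

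Rescaled to the listed reads, the log2 fold change was 0.64 for Sardh, 0.086 for Gnmt and 0.056 for Cbs, which turned sign. Without 1 library, log2 fold changes ranged from 2.03 to 2.27 for Chdh, 1.09 to 1.36 for Bhmt2, 0.52 to 0.63 for Sardh, 0.22 to 0.61 for Pemt, -0.11 to 0.82 for Mat1a, -0.0035 to 0.40 for Dmgdh, -0.41 to 0.12 for Bhmt, -0.057 to 0.22 for Ahcy, -0.24 to 0.22 for Cbs and -0.0095 to 0.054 for Gnmt, so that the last 6 took either sign. The median of the enzymes ran from 0.036 to 0.48 without 1 library, that of the cysteine list from 0.016 to 0.28, and that of the choline list was 0.069 at a mean of at least 5 FPKM. Among the connected genes named, those that changed sign were Ahcyl2 (0.017) and Cth (0.0011) when rescaled to the listed reads, and, without 1 library, Pcyt1a (-0.41 to 0.045), Mat2b (-0.033 to 0.33), Ahcyl2 (-0.091 to 0.034) and Cth (-0.33 to 0.20). The cause of these changes was not tested.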
